A study of Mus musculus with 30 samples.

Results

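The Zfp genes of the mouse are the genes named Zfp followed by a number, most of which code for zinc finger proteins. The polyadenylated RNA of sperm collected 24 h after the last injection contained 16242 quantified features, of which 237 bore such a name. The members described here are the 200 of them selected on their level, which is more than 20 estimated counts in at least 4 of the 8 libraries at 24 h, whatever the injection group. The same names were then looked up in sperm total RNA collected 46 days after the last injection, where 21 of the 200 were present among 3082 features. The values that chose the members are thus their counts at 24 h, and their levels there are given as a description.

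Sperm RNA was measured to ask whether an agonist of PPAR receptors given to adult males leaves a trace in their germ cells. All groups were C57Bl/6J males aged 3 months that received intraperitoneal injections 2 times per week for 4 weeks. The Tesa-inj males received 10 μg/kg of tesaglitazar, which activates both PPARα and PPARγ, and the Vehicle-inj males received the DMSO in saline that carried it. At 24 h, 4 Tesa-inj and 4 Vehicle-inj libraries were made from polyadenylated RNA, and at 46 days 7 and 7 libraries were made from total RNA depleted of rRNA. The time point and the kind of library therefore changed together and cannot be told apart. Nothing in the labels ties a library to an animal, so p-values measure the spread between libraries, which may in part be technical.

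Most Zfp genes encode proteins with rows of C2H2 zinc fingers, each finger reading a short stretch of DNA. Many of them carry a KRAB domain, which recruits the corepressor Trim28 and through it histone methyltransferases, heterochromatin proteins and histone deacetylases, so that the bound DNA is silenced. Such proteins hold down endogenous retroviruses and keep the DNA methylation of imprinted genes in germ cells and early embryos. Other genes bearing the name are general transcription factors, RNA-binding proteins, ubiquitin or SUMO ligases, or proteins of another fold altogether. Mature sperm transcribes little or nothing, and its RNA is largely carried over from spermatids or acquired in the epididymis.

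The libraries at 24 h held 15337589 to 27709990 counts in total. The 200 members took 0.0909 to 0.188% of them, which is 14981 to 52182 counts per library. In Tesa-inj the member share was 0.0909, 0.119, 0.120 and 0.188% and in Vehicle-inj 0.0966, 0.116, 0.125 and 0.142% in the order of the library numbers. The highest share belonged to Tesa-inj library 7, which is also the deepest of the 8, and the groups overlapped. After TMM scaling, which corrects for differences in library composition, the summed level of the members was 1168 ± 72.4 CPM (counts scaled to a common library size; SD, n = 4) in Tesa-inj and 1276 ± 112 CPM (SD, n = 4) in Vehicle-inj. The sums ran from 1108 to 1257 CPM and from 1179 to 1437 CPM, so that they overlapped as well.

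Single members were scarce. Their mean level in Vehicle-inj at 24 h had a median of 3.23 CPM with quartiles at 1.62 and 6.57 CPM, against a median of 5.89 CPM over all 13752 features that passed the same filter. CPM is not corrected for transcript length, so it sets no order between genes. The largest CPM values in Vehicle-inj were those of Zfp821 with 92.1 ± 33.0, Zfp219, a transcriptional repressor and Sox9 partner, with 84.1 ± 29.4, Zfp91, a ubiquitin ligase, with 42.3 ± 7.38, and Zfp106, an RNA-binding protein that motor neurons need, with 40.4 ± 11.5 (SD, n = 4). Zfp185, which despite its name is a LIM protein of the actin cytoskeleton, Zfp574, Zfp217, Zfp598, Zfp706 and Zfp36 followed, between 22.5 and 30.4 CPM. The lowest mean was the 0.455 CPM of Zfp54.

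Of the 200 members, 82 exceeded 20 counts in all 8 libraries, 93 in 5 to 7 and 25 in exactly 4. Both groups held the same number of libraries above that count for 110 members, Tesa-inj held more for 49 and Vehicle-inj more for 41. In 5 members all 4 Tesa-inj libraries but only 1 Vehicle-inj library exceeded 20 counts, so that they met the rule through Tesa-inj alone, and 0 members did the reverse. Of the 37 names left out, 14 exceeded 20 counts in 3 libraries and 23 in fewer. At the edge of the rule, the fourth highest count was 20.5 for Zfp942, 20.8 for Zfp872 and 21 for Zfp958 just inside it, and 20 for Zfp959, 19.7 for Zfp251 and 19.1 for Zfp558 just outside it.

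Many members dropped to 0 in single libraries. A count of 0 in at least 1 of the 8 libraries occurred in 76 members. Among the 71 members with a mean of at least 100 counts, 10 had such a 0, which is 14.1%, against 5.88% of the 8016 features of that depth. Zfp217, an oncogene product found in corepressor complexes, had 447, 387, 431 and 645 counts in Vehicle-inj and 382, 68.5, 0 and 671 in Tesa-inj. Zfp516, which drives the brown fat programme, had 228, 0, 289 and 411 counts in Vehicle-inj and 193, 426, 318 and 661 in Tesa-inj. In each of these genes 1 library was empty while the others held from 68.5 to 671 counts. At 46 days 1 of 9 members with a mean of at least 50 counts had a 0. This is 11.1%, against 10.1% of the 2200 features of that depth. The counts are estimates that divide reads among transcripts, and whether this division produced the empty values was not tested. Copies of Zfp genes lying side by side can share reads in the same way, so values of single genes in the clusters named further on are uncertain.

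The label of the samples was checked against marker genes. At 24 h all 12 of 12 genes of late spermatids and sperm were present, with a summed level of 9361, 3869, 9653 and 12503 CPM in Vehicle-inj and 10443, 5558, 11979.5 and 7286 CPM in Tesa-inj, and Smcp, a protein of the mitochondrial sheath, as the highest in Vehicle-inj at 2354 ± 1359.7 CPM (SD, n = 4). The spermatocyte genes Sycp1, Sycp3, Spo11 and Hormad1 were not among the quantified features, and 4 of 8 genes of that list were, led by Ldhc. Genes of other cells were found as well. All 13 of 13 leukocyte genes were present with sums of 344, 208, 163 and 192 CPM in Vehicle-inj and 242, 261, 172 and 226 CPM in Tesa-inj, and Cd74 led them at 67.6 ± 24.7 CPM in Vehicle-inj (SD, n = 4). Of the epididymal epithelium genes, 6 of 10 were present, with sums of 884, 1186, 1438 and 2418 CPM in Vehicle-inj and 1189.7, 1078, 1717 and 1597 CPM in Tesa-inj, and Crisp1 led them at 804 ± 632 CPM in Vehicle-inj (SD, n = 4). Sums of both lists overlapped between the groups. Red blood cell genes (4 of 5 present) summed to 53.5 to 269.9 CPM over the 8 libraries and spermatogonial genes (4 of 7) to 33.8 to 82.4 CPM, while Sox9 was the only one of 6 Sertoli cell genes present. The spermatogonial sum was mostly Uchl1, with a mean of 47.4 CPM in Vehicle-inj. Zbtb16, Kit and Stra8 had means of 6.69, 2.05 and 0.279 CPM there. Per the study's methods, sperm swam out of the tissue and was then kept in a buffer that lyses somatic cells. Many Zfp genes are used by all these cells, and how much of the Zfp RNA came from sperm was not tested, and fewer cells of a type cannot be told apart from less RNA per cell. At 46 days none of the leukocyte, epididymal, Sertoli or red blood cell genes was among the quantified features, whereas all 12 sperm genes were. Only 3082 features were quantified then, against 16242 at 24 h, so this absence does not show that such cells were fewer.

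At 24 h the smallest unadjusted p among the Zfp genes belonged to Zfp644, Zfp319, Zfp451, Zfp598 and Zfp367, with lower means in Tesa-inj, and to Zfp64, with a higher mean. None of the 200 members passed an adjusted p of 0.05 when edgeR fitted a quasi-likelihood model and p was adjusted by Benjamini-Hochberg over all 13752 features tested, as was the case for 0% of all features. At an unadjusted p under 0.05 there were 6 members, 5 lower and 1 higher in Tesa-inj, against 372 features or 2.71% of all, with 1.75% lower and 0.953% higher. The exact test of edgeR gave 5 of 200 members at that level (2.74% of all features), DESeq2 6 of 199 (3.59%) and limma voom 12 of 200 (7.43%), and each of them gave 0 after adjustment. The adjusted p of every member was 1.00 in the quasi-likelihood fit of edgeR. Without Vehicle-inj library 4, 6 or 8 the unadjusted count was 3 of 187, 188 and 179 members tested, against 3.04%, 3.07% and 1.94% of all features, with Zfp644 in all 3 fits.

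The median log2 fold change of the members was -0.027, beside -0.023 for all features tested. Values below 0 were found in 106 members, which is 53% against 52.2% of all features. The members ranged from -2.96 to 1.46, with 20 below -1 and 12 above 1, which is 10% and 6% of them against 4.84% and 3.34% of all features. Of these 32, only Zfp644 exceeded 20 counts in every library. Among those above 1, Zfp54, Zfp668, Zfp825 and Zfp930 met the selection rule through Tesa-inj alone, so that share rests in part on the rule. Among those below -1, Zfp958, Zfp37, Zfp799, Zfp541, Zfp334 and Zfp9 met it in exactly 4 libraries, of which only 1 was Tesa-inj. The share below -1 thus rests in part on the rule as well. These genes are named here after their values were seen. The 82 members above 20 counts in all 8 libraries were chosen after the data were seen. Their values lay between -1.46 and 0.69 with a median of -0.025. Of these members 1.22% were below -1 and 0% above 1. Among the 8191 features above 20 counts in every library, the shares were 1.18% and 0.354%. The larger shares of members beyond -1 and 1 were thus not seen at this depth. Without TMM, on library totals alone, the median of all features moved to 0.19 and that of the members to 0.17, and 77 members were then below 0 in place of 106, against 34.7% of all features. With TMM but without Vehicle-inj library 4, the median of the members was 0.14, beside 0.0098 for all features. Without Vehicle-inj library 2 these values were -0.12 and -0.014.

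**Figure D1:**
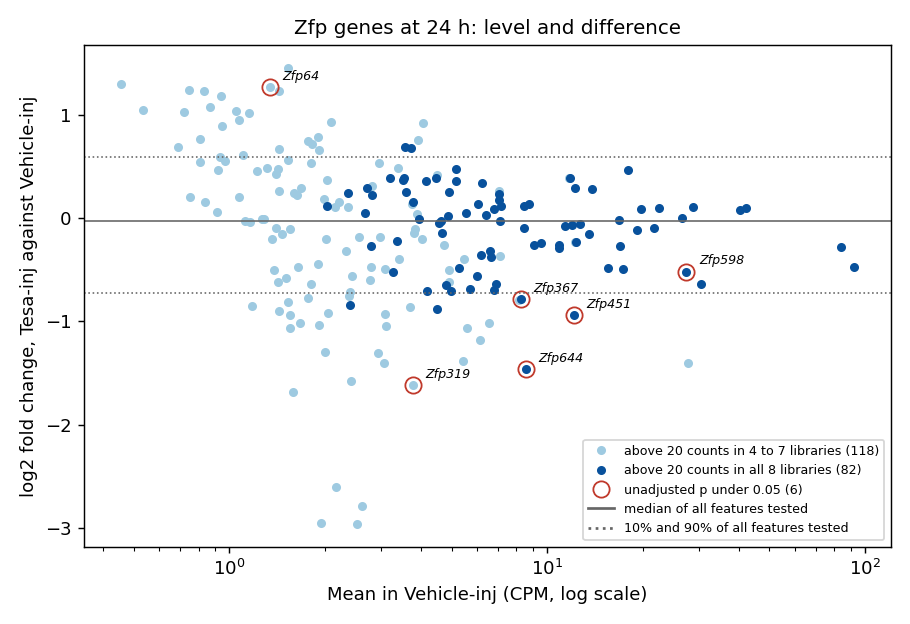
Each point is 1 of the 200 Zfp genes at 24 h, with its mean level in the 4 Vehicle-inj libraries in CPM on a log scale and the log2 fold change of Tesa-inj against Vehicle-inj. Rings mark the 6 genes with an unadjusted p under 0.05, and the horizontal lines give the median (-0.023) and the 10% and 90% points (-0.72 and 0.59) of all features tested. The Vehicle-inj mean enters both axes, so the slope among scarce genes is not read as a result.

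Zfp644, a partner of the histone methyltransferases Ehmt1 and Ehmt2, had the smallest p of the members. Its level was 8.02, 11.4, 7.23 and 7.56 CPM in the Vehicle-inj libraries and 4.44, 1.64, 2.76 and 3.58 CPM in the Tesa-inj libraries. Every Tesa-inj library lay below every Vehicle-inj library. The edgeR test gave a log2 fold change -1.46, standard error 0.40, unadjusted p = 0.00421 and an adjusted p = 1.00, and the value stayed between -1.66 and -1.25 when any 1 library was left out. Ehmt1 and Ehmt2 themselves had log2 fold changes of 0.14 and -0.024, with unadjusted p = 0.850 and 0.918 in edgeR. Groups without overlap in CPM were found for 9 members (Zfp319, Zfp598, Zfp64, Zfp644, Zfp668, Zfp703, Zfp709, Zfp809 and Zfp958), where 3.26% of all features tested showed the same. Zfp668 and Zfp709 are named here because they complete this count, after their values were seen. Zfp668 met the selection rule through Tesa-inj alone, the group where it is higher. Zfp958 met it in exactly 4 libraries, of which only 1 was Tesa-inj, and it is higher in Vehicle-inj. The place of both genes in the count thus rests in part on that rule.

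Zfp319, a C2H2 protein, stood at 3.76, 6.15, 2.57 and 2.65 CPM in Vehicle-inj and 0.925, 2.03, 1.03 and 0.918 CPM in Tesa-inj. Tesa-inj library 3 was well above the other Tesa-inj libraries, yet remained below the lowest Vehicle-inj library. The edgeR test gave a log2 fold change -1.62, standard error 0.56, unadjusted p = 0.0168. These levels rest on few counts, from 15 to 80 per library.

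Zfp451, a ligase that attaches SUMO to other proteins, stood at 11.3, 7.68, 11.5 and 17.97 CPM in Vehicle-inj and 9.37, 4.93, 7.10 and 4.04 CPM in Tesa-inj. The groups overlapped through Vehicle-inj library 4, which was the lowest of its group, and Tesa-inj library 1. The edgeR test gave a log2 fold change -0.94, standard error 0.38, unadjusted p = 0.0320. Zfp598, a ubiquitin ligase that senses collided ribosomes, stood at 35.8, 29.0, 21.6 and 23.1 CPM in Vehicle-inj and 20.04, 18.6, 21.0 and 16.7 CPM in Tesa-inj. Its groups did not overlap, but the highest Tesa-inj library and the lowest Vehicle-inj library were nearly level. The edgeR test gave a log2 fold change -0.52, standard error 0.23, unadjusted p = 0.0463. Zfp598 was the best counted of these genes, with 325 to 727 counts per library.

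Zfp367, a transcription factor, stood at 9.53, 8.41, 7.18 and 7.89 CPM in Vehicle-inj and 3.82, 4.76, 3.25 and 7.27 CPM in Tesa-inj. Its groups overlapped by Tesa-inj library 7 alone, which reached the lowest Vehicle-inj values. The edgeR test gave a log2 fold change -0.78, standard error 0.35, unadjusted p = 0.0487. Zfp64, a C2H2 transcription factor, was the member in the other direction, with 1.09, 1.86, 0.922 and 1.49 CPM in Vehicle-inj and 2.78, 4.84, 3.01 and 2.39 CPM in Tesa-inj. All Tesa-inj libraries lay above all Vehicle-inj libraries, and Tesa-inj library 3 was the highest. The edgeR test gave a log2 fold change 1.28, standard error 0.54, unadjusted p = 0.0389, on 12.5 to 112 counts per library.

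The 4 members next in order of p were Zfp185, Zfp651, Zfp688 and Zfp958. Zfp185 was measured at 19.3, 39.7, 27.4 and 35.2 CPM in Vehicle-inj and 20.7, 25.4, 18.7 and 13.7 CPM in Tesa-inj, and the groups overlapped through Vehicle-inj library 2 (edgeR, log2 fold change -0.63, standard error 0.29, unadjusted p = 0.0508). Zfp651, a protein with a BTB domain, was absent from 2 Tesa-inj libraries, with 4.68, 3.40, 1.65 and 0.696 CPM in Vehicle-inj and 0, 0.952, 0 and 0.505 CPM in Tesa-inj. Its groups overlapped through Vehicle-inj library 8 (edgeR, log2 fold change -2.79, standard error 1.34, unadjusted p = 0.0643). Zfp688 was measured at 1.84, 1.29, 0.631 and 1.96 CPM in Vehicle-inj and 4.87, 1.12, 3.45 and 4.08 CPM in Tesa-inj, with overlap through Tesa-inj library 3 (edgeR, log2 fold change 1.24, standard error 0.63, unadjusted p = 0.0787). Zfp958 was absent from 3 of the 4 Tesa-inj libraries, with 2.34, 1.54, 1.02 and 2.88 CPM in Vehicle-inj and 0, 0, 0 and 0.918 CPM in Tesa-inj. Tesa-inj library 7, the deepest one, was the only Tesa-inj library with counts of Zfp958 (edgeR, log2 fold change -2.96, standard error 1.52, unadjusted p = 0.0796). Vehicle-inj libraries 2 and 4, which had the fewest total counts of all, still held 28 and 19 counts of it.

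**Figure D2:**
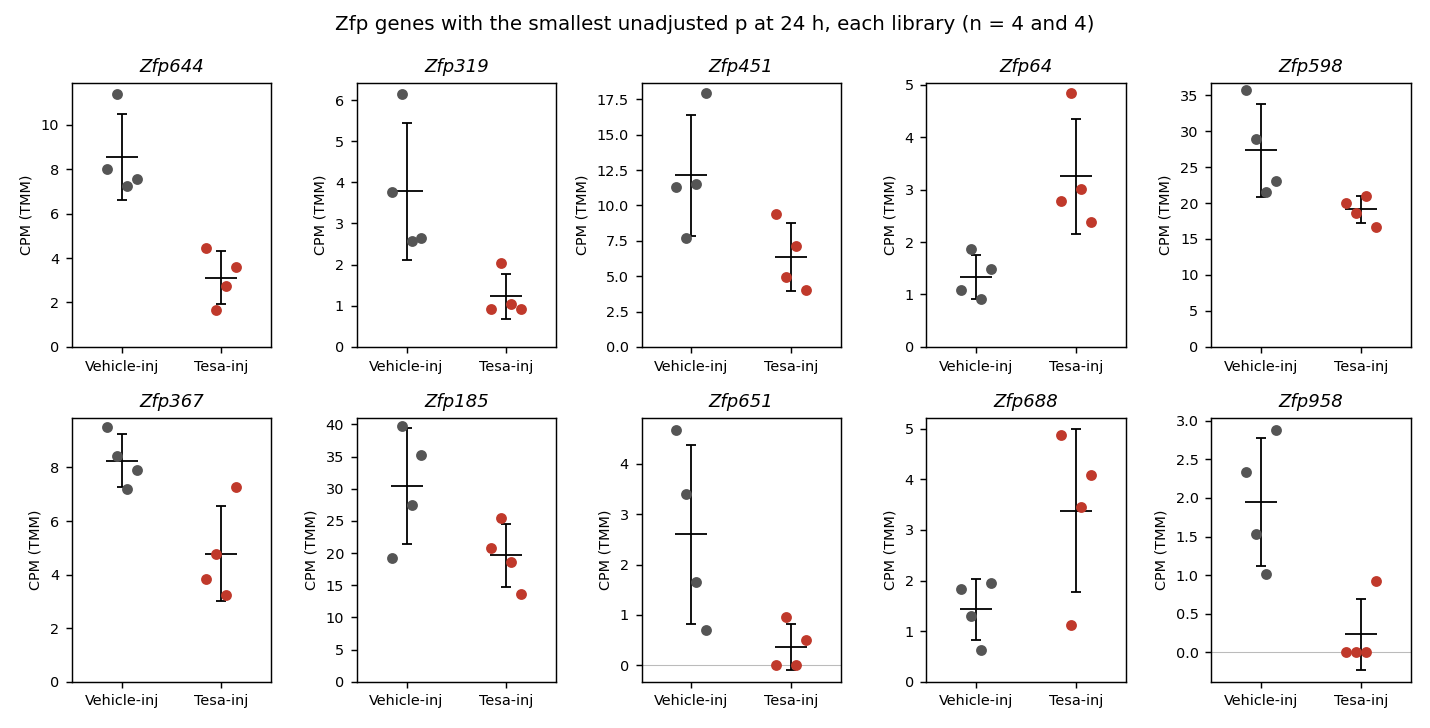
The level in each library at 24 h, in CPM after TMM scaling, is drawn for the 10 Zfp genes with the smallest unadjusted p, with 4 Vehicle-inj libraries in grey and 4 Tesa-inj libraries in red. The dash is the group mean and the bar its SD. The groups are apart in Zfp644, Zfp319, Zfp64, Zfp598 and Zfp958 and overlap in the other 5, and none of the 10 reached an adjusted p under 0.05. Zfp958 met the selection rule in exactly 4 libraries, nearly all of them Vehicle-inj.

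The members that guard imprints and retroviral elements were examined as a list, of which 4 of 8 genes were tested at 24 h. All 4 had values below 0 (52.2% of all features) and none an unadjusted p under 0.05 (2.71% of all features), with a median log2 fold change of -0.58 beside -0.023 for all features. Zfp809, which silences murine leukaemia virus, stood at 6.27, 7.12, 4.56 and 4.84 CPM in Vehicle-inj and 3.45, 2.68, 4.09 and 3.88 CPM in Tesa-inj. Its groups did not overlap (edgeR, log2 fold change -0.69, standard error 0.36, unadjusted p = 0.0852). Zfp445, which maintains imprints together with Zfp57, had 15.5 ± 4.34 CPM in Vehicle-inj and 11.2 ± 3.92 CPM in Tesa-inj (SD, n = 4). Its groups overlapped (edgeR, log2 fold change -0.48, standard error 0.33, unadjusted p = 0.173). Zfp932, which acts on endogenous retroviruses, and Zfp568, which represses a placental form of Igf2, had log2 fold changes of -0.71 and -0.48. Their standard errors were 0.62 and 1.19, with unadjusted p = 0.278 and 0.697 in edgeR. Zfp568 exceeded 20 counts in exactly 4 libraries and was empty in Tesa-inj library 5. On library totals without TMM all 4 were still below 0, with a median of -0.33 beside 0.19 for all features, of which 34.7% were then below 0. Zfp57 itself, Zfp708, Zfp819 and Zfp961 were not among the quantified features.

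Of the genes tied to the germ line and pluripotent cells, 6 of 10 were tested, 5 of them with values below 0 and none with an unadjusted p under 0.05, against 52.2% and 2.71% of all features. Their median log2 fold change was -0.80 beside -0.023 for all features, and -0.49 beside 0.19 on library totals. With limma voom all 6 were below 0, against 56.3% of all features. Zfp541 then had an unadjusted p under 0.05, as did 7.43% of all features. Zfp41 did not meet the count rule. Zfp37, a gene of spermatids, was read in all Vehicle-inj libraries, at 4.85, 2.83, 1.75 and 0.630 CPM, but in Tesa-inj only in library 7, with 0, 0, 0 and 1.19 CPM. Zfp541, which male meiosis requires, showed the same gaps, with 1.34, 2.83, 2.38 and 3.08 CPM in Vehicle-inj and 0, 0, 0 and 3.12 CPM in Tesa-inj. The Tesa-inj library with counts was in both cases the deepest, lying within Vehicle-inj for Zfp37 and just above it for Zfp541. Vehicle-inj libraries 2 and 4 had fewer total counts (15515206 and 15337589) than the empty Tesa-inj libraries (18795822 to 24483818). They still held 58 and 35 counts of Zfp37 and 16.5 and 35 of Zfp541. The part of depth in these gaps was not tested. Both genes met the selection rule in exactly 4 libraries, of which only library 7 was Tesa-inj. Their log2 fold changes were -2.96 (standard error 1.58) and -1.58 (standard error 1.60), with unadjusted p = 0.0906 and 0.345 in edgeR. Zfp318, the testicular zinc finger protein, Zfp35, Zfp105 and Zfp474, all found in the testis, had log2 fold changes of -0.26, 0.024, -1.02 and -0.58.

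PPARγ, which tesaglitazar activates, is the master regulator of fat cells, and zinc finger genes of fat cells and metabolism formed a further list. Of that list, 3 of 7 genes were tested, 1 below and 2 above 0, and none had an unadjusted p under 0.05 (all features: 52.2% below 0 and 2.71% under 0.05). Zfp407, needed for insulin-stimulated glucose uptake in fat cells, stood at 6.27, 15.4, 6.40 and 8.25 CPM in Vehicle-inj and 5.55, 9.08, 9.12 and 6.54 CPM in Tesa-inj. The groups overlapped and Vehicle-inj library 4 was the highest, and without it the log2 fold change turned from -0.26 to 0.14 (edgeR, log2 fold change -0.26, standard error 0.37, unadjusted p = 0.506 with all libraries). Zfp516 stood at 19.1, 0, 14.0 and 13.6 CPM in Vehicle-inj and 11.9, 18.4, 15.7 and 15.2 CPM in Tesa-inj. Apart from the empty Vehicle-inj library 4 the groups overlapped, and the log2 fold change of 0.39 (standard error 0.90, unadjusted p = 0.675 in edgeR) became -0.0025 without it. Zfp423, which commits precursor cells to fat, had a log2 fold change of 0.20.

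All 8 members that act on RNA, ribosomes or the spindle were tested, 5 below and 3 above 0, and Zfp598 was the only one with an unadjusted p under 0.05 (all features: 52.2% below 0 and 2.71% under 0.05). On library totals 3 of 8 were below 0, against 34.7% of all features. Zfp36 (tristetraprolin), which speeds the decay of AU-rich mRNAs, stood at 28.2, 19.8, 19.4 and 22.5 CPM in Vehicle-inj and 17.9, 33.9, 15.1 and 29.8 CPM in Tesa-inj. The Tesa-inj values enclosed those of Vehicle-inj (edgeR, log2 fold change 0.10, standard error 0.30, unadjusted p = 0.732). Zfp106 stood at 30.3, 56.6, 35.1 and 39.4 CPM in Vehicle-inj and 34.7, 56.7, 43.3 and 35.6 CPM in Tesa-inj, and the groups overlapped nearly fully (edgeR, log2 fold change 0.077, standard error 0.26, unadjusted p = 0.773). Zfp36 turned below 0 without Tesa-inj library 3 or 7, and Zfp106 without Tesa-inj library 3 or Vehicle-inj library 2. Zfp207, a spindle protein, Zfp326, an RNA-binding protein, Zfp346, which binds double-stranded RNA, Zfp622, a factor of ribosome assembly, and Zfp830, a splicing factor, had log2 fold changes of -0.054, -0.93, -0.37, 0.30 and -0.27.

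Among broadly used transcription factors and cofactors, 12 of 14 were tested, with 6 below and 6 above 0, a median log2 fold change of 0.0026 and none at an unadjusted p under 0.05 (all features: 52.2% below 0, median -0.023 and 2.71% under 0.05). Zfp217 stood at 37.3, 31.3, 20.9 and 21.4 CPM in Vehicle-inj and 23.6, 2.98, 0 and 15.4 CPM in Tesa-inj. Tesa-inj libraries 3, 5 and 7 lay below all of Vehicle-inj and library 1 within it (edgeR, log2 fold change -1.40, standard error 1.03, unadjusted p = 0.205). Zfp219 stood at 128, 74.1, 65.0 and 69.5 CPM in Vehicle-inj and 76.4, 56.6, 84.9 and 60.1 CPM in Tesa-inj. Vehicle-inj library 2 was above all others and the rest of both groups overlapped, and without that library the log2 fold change was 0.014 in place of -0.27 (edgeR, log2 fold change -0.27, standard error 0.27, unadjusted p = 0.331 with all libraries). Zfp91 stood at 32.9, 50.9, 42.0 and 43.1 CPM in Vehicle-inj and 39.1, 55.0, 44.3 and 42.6 CPM in Tesa-inj, with groups that overlapped (edgeR, log2 fold change 0.099, standard error 0.21, unadjusted p = 0.649), and the value was below 0 without Tesa-inj library 3. Zfp148, which binds GC-rich promoter boxes, stood at 9.36, 12.7, 11.9 and 9.45 CPM in Vehicle-inj and 14.0, 12.2, 3.25 and 6.22 CPM in Tesa-inj. Its Tesa-inj values lay on both sides of Vehicle-inj (edgeR, log2 fold change -0.29, standard error 0.43, unadjusted p = 0.524), and the value was above 0 without Tesa-inj library 5. The corepressor Zfp703 had all 4 Tesa-inj libraries above Vehicle-inj, at 3.30 ± 0.825 against 1.90 ± 0.276 CPM (SD, n = 4), with a log2 fold change of 0.79. Log2 fold changes of the other 7 were 0.24 for Zfp110, 0.16 for Zfp143, -0.26 for Zfp263, 0.30 for Zfp281, 0.92 for Zfp335, -0.39 for Zfp462 and -0.093 for Zfp503.

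The machinery through which KRAB zinc finger proteins silence DNA was read from a list of 32 genes, of which 27 were quantified and tested at 24 h. None had an unadjusted p under 0.05, 14 were below and 13 above 0, and the median log2 fold change was -0.0031, or 0.25 with 8 below 0 on library totals. Over all features 2.71% had an unadjusted p under 0.05, and 52.2% were below 0 with a median of -0.023, or 34.7% with a median of 0.19 on library totals. Trim28, the corepressor that KRAB domains bind, stood at 23.6, 25.1, 29.5 and 22.4 CPM in Vehicle-inj and 27.6, 23.3, 23.6 and 30.3 CPM in Tesa-inj. The groups covered much the same range (edgeR, log2 fold change 0.061, standard error 0.20, unadjusted p = 0.768), and the value was below 0 without Tesa-inj library 7. The methyltransferase gene Setdb1 was not among the quantified features. The smallest p of the list belonged to Chd3, a subunit of the NuRD deacetylase complex, with 43.6 ± 6.63 CPM in Vehicle-inj and 62.7 ± 15.1 CPM in Tesa-inj (SD, n = 4), and the groups overlapped (edgeR, log2 fold change 0.52, standard error 0.24, unadjusted p = 0.0521). Its close relative Chd4 had 277 ± 80.6 and 212 ± 37.6 CPM (SD, n = 4) and a log2 fold change of -0.38. Chd3 is named for its p and Chd4 as its relative, both after their values were seen. Chd4 did not stand out (unadjusted p = 0.172 in edgeR), as Morc2a, Sumo2 and Atrx had smaller p.

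Related families are given for comparison by their counts. Of 46 tested genes named Zscan, Zkscan or Zbtb, whose proteins pair C2H2 fingers with SCAN, KRAB or BTB domains, 0 had an unadjusted p under 0.05 in edgeR, 23 were below 0, and the median log2 fold change was 0.0054. Of 13 tested Zc3h genes, whose CCCH fingers bind RNA, 0 had an unadjusted p under 0.05 in edgeR, 5 were below 0, and the median was 0.088. Over all features these values were 2.71%, 52.2% and -0.023. At 46 days 1 tested Zscan, Zkscan or Zbtb gene had an unadjusted p above 0.05, and 1 of 3 Zc3h genes had one below it (0.0367 in edgeR), against 5.3% of all features.

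Zfp genes lie in clusters that grew by tandem duplication, and positions were taken from RefSeq on GRCm38.p6 for 199 of the 200 members. Chromosome 7 held 50 of them, chromosome 17 18, chromosome 8 17 and chromosome 9 15. With gaps of at most 250000 bases between neighbours, 62 members fell into 11 clusters of 4 or more. Clustered members had a median Vehicle-inj level of 2.69 CPM and 28 of 62 had log2 fold changes below 0, and the 137 others had 3.56 CPM with 77 below 0, where 52.2% of all features were. All 6 members with an unadjusted p under 0.05, a level reached by 2.71% of all features, lay outside the clusters. Whether clustered and other members differ in this was not tested. In the total RNA at 46 days 3 clustered and 18 other members recurred. The largest cluster, at chr7:127233061-127885996, held 9 members from Zfp553 to Zfp646, of which 2 were below 0 (median log2 fold change 0.26). The cluster with the lowest median was at chr17:21423227-22361428, where 5 of 6 members (Zfp54, Zfp948, Zfp760, Zfp942, Zfp994 and Zfp944) were below 0 with a median of -0.88. All 6 of these had a count of 0 in at least 1 library. The cluster with the highest median was at chr7:24112320-24515682, where 2 of 6 members (Zfp112, Zfp235, Zfp93, Zfp61, Zfp94 and Zfp428) were below 0 with a median of 0.63, and 5 of them had such a 0. Both are named after their values were seen. No member of any cluster had an unadjusted p under 0.05, where 2.71% of all features did. On library totals 20 of 62 clustered members were below 0, against 34.7% of all features.

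RefSeq start regions on GRCm38.p6, which run from 250 bases before to 50 bases after a gene's start, were at hand for 166 members with 204 starts. They were rich in CpG, with a median of 17 CG pairs per 300 bases against 7 in all 32851 starts, and 78.9% against 43.5% held at least 10. On either strand the letters AGGTCA, the core repeat of the element that PPAR and its partner RXR bind, occurred in 10.8% of member starts and 16.3% of all starts. The full element, AGGTCA repeated in the same direction with 1 base between, occurred in 0 of 204 member starts and 13 of all. CCAAT was found in 43.6% against 37.4%, TATAAA in 5.88% against 13.6%, and the palindrome CTCGCGAG in 0.980% against 0.919%. The letters searched are short, and a match describes the sequence without showing a bound site.

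The start regions of the 4 members with an unadjusted p under 0.05 and no overlap between groups are printed to show this range, 5′ to 3′ on the gene's strand, with each CG pair in capitals. Zfp644 has 2 RefSeq starts, and both are given. AGGTCA or its reverse complement was found in the first start of Zfp644 and in Zfp319, and CCAAT or its reverse complement in the second start of Zfp644 and in Zfp64.
Zfp644, chr5:106696781-106697080 (minus strand, 10 CG pairs): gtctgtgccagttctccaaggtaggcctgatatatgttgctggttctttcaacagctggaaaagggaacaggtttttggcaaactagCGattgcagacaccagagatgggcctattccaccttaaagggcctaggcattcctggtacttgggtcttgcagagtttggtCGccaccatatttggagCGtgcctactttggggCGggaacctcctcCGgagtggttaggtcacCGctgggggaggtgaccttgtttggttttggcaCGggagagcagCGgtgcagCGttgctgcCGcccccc
Zfp644, chr5:106696476-106696775 (minus strand, 47 CG pairs): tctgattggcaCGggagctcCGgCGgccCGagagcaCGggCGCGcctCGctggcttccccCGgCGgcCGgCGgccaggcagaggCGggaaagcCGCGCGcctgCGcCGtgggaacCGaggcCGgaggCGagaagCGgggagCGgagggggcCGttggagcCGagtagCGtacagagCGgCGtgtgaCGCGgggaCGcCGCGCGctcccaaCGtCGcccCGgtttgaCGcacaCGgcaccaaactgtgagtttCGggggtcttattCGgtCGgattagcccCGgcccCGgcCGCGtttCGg
Zfp319, chr8:95331762-95332061 (minus strand, 40 CG pairs): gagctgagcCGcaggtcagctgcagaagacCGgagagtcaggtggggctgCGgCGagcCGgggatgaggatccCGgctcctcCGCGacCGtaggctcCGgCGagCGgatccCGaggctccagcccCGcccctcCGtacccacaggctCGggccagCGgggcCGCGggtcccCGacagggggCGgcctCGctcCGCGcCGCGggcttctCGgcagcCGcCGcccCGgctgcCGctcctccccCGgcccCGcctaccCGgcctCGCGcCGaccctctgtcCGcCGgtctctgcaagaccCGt
Zfp64, chr2:168955538-168955837 (minus strand, 9 CG pairs): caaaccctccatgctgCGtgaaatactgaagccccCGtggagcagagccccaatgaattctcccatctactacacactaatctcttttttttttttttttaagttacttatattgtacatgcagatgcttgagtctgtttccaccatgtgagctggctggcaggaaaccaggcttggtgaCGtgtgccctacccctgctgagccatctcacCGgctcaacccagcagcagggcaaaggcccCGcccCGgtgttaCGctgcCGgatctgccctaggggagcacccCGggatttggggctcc
Zfp598, chr17:24669437-24669736 (plus strand, 29 CG pairs): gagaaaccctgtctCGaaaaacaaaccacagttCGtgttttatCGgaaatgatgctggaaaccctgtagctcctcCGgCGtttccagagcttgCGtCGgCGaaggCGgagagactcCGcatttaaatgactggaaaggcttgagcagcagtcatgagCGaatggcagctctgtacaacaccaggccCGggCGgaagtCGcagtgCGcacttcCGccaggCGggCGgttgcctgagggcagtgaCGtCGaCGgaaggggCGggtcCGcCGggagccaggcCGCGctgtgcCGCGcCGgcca

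At 46 days the Zfp genes were measured in libraries that the selection did not use. The libraries held 4538102 to 13513816 counts, but outside the 5 most abundant features 158852 to 7119432 were left, so depth for the Zfp genes differed widely. They took 240.0 counts in library KG8-02 and 711 in KG8-12, both Tesa-inj, and 28715 in KG8-14 of Vehicle-inj. In Tesa-inj the summed level of the 21 members was 278 to 421 CPM (mean 337 ± 54.1, SD, n = 7) and in Vehicle-inj 322 to 377 CPM (mean 356 ± 19.96, SD, n = 7). The 179 other members were not among the quantified features, so they were not analysed at this time.

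At 46 days Tesa-inj and Vehicle-inj sperm showed no Zfp gene past the threshold of the main test. Of the 21, 17 exceeded 20 rounded counts in 6 or more libraries and were tested, while Zfp106, Zfp185, Zfp704 and Zfp91 did not. Zfp185 would have passed on the estimated counts before rounding. In edgeR's quasi-likelihood test 0 of 17 had an adjusted p under 0.05, as had 0% of the 2866 features tested, and 0 had an unadjusted p under 0.05, where 5.3% of all features did. DESeq2 and the exact test of edgeR also gave 0 at the unadjusted level, and limma voom gave 1, Zfp236, beside 5.76% of all features. The median log2 fold change of the 17 was 8.60e-05 beside -0.025 for all features, 8 were below 0 (14 without KG8-12, 17 on library totals; 54.0% of all features in the first fit), and the values ran from -0.31 to 0.71. The library numbers run through Tesa-inj and then Vehicle-inj in 1 to 10 and again in 11 to 14, although the labels name no batch. In libraries 1 to 10 alone 0 of 11 tested members had an unadjusted p under 0.05 (2.14% of all features), with a median of -0.079. With a term for this split 0 of 17 did (3.35% of all features), with a median of 0.0031. On library totals without TMM the median was -1.11 for the members and -1.09 for all features, which is a shift of the whole table.

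Zfp592, which joins Zmynd8 in a corepressor complex, had the smallest p at 46 days. It ran from 1.53 to 3.48 CPM (median 2.41) in Vehicle-inj and from 0 to 12.3 CPM (median 2.97) in Tesa-inj. The Tesa-inj values enclosed those of Vehicle-inj, with KG8-12 at the top and an empty KG8-02 (edgeR, log2 fold change 0.71, standard error 0.41, unadjusted p = 0.103). Without KG8-12 the log2 fold change was 0.21. Zfp609, which works with the cohesin loader Nipbl and Integrator, ran from 0.804 to 4.59 CPM (median 2.47) in Vehicle-inj and from 1.90 to 11.1 CPM (median 2.73) in Tesa-inj. KG8-12 was again far above the rest, which overlapped (edgeR, log2 fold change 0.50, standard error 0.42, unadjusted p = 0.254), and without it the log2 fold change was -0.031.

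Zfp407 ran from 3.32 to 6.16 CPM (median 4.61) in Vehicle-inj and from 2.33 to 13.4 CPM (median 5.10) in Tesa-inj at 46 days. Only KG8-12 exceeded Vehicle-inj (edgeR, log2 fold change 0.20, standard error 0.33, unadjusted p = 0.553), and the log2 fold change was -0.17 without it. Zfp367, whose mean at 24 h was lower in Tesa-inj without passing adjustment, ran from 1.62 to 3.32 CPM (median 2.11) in Vehicle-inj and from 1.164 to 7.11 CPM (median 2.01) in Tesa-inj. KG8-12 was once more the highest and KG8-02 the lowest (edgeR, log2 fold change 0.25, standard error 0.33, unadjusted p = 0.450), and without KG8-12 the value was -0.081. In all, KG8-12 had the highest level of the 14 libraries in 6 of 21 members (Zfp106, Zfp367, Zfp407, Zfp592, Zfp609 and Zfp91) and the lowest in 5, while it was the highest in 25.4% and the lowest in 20.9% of the 3082 features. Zfp91 reached 22.1 CPM there against at most 2.63 CPM in Vehicle-inj. KG8-12 also had the lowest summed level of the silencing partners after KG8-02, at 229.6 and 157 CPM, with 318 CPM the next in Tesa-inj.

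Of the 10 members with the largest CPM at 24 h, Zfp219, Zfp821 and Zfp598 were well counted at 46 days too, whereas Zfp91, Zfp106 and Zfp185 failed the count filter there and Zfp706 and Zfp36 were not quantified. Zfp219 ran from 119 to 153 CPM (median 150.1) in Vehicle-inj and from 64.4 to 179 CPM (median 123) in Tesa-inj. Tesa-inj spread around Vehicle-inj on both sides, with KG8-12 lowest (edgeR, log2 fold change -0.16, standard error 0.20, unadjusted p = 0.418). Zfp821 ran from 83.1 to 103 CPM (median 95.5) in Vehicle-inj and from 42.3 to 118 CPM (median 83.7) in Tesa-inj, and KG8-12 was again lowest (edgeR, log2 fold change -0.12, standard error 0.18, unadjusted p = 0.532). In libraries 1 to 10 alone its log2 fold change was 0.053. Zfp598 ran from 26.9 to 35.6 CPM (median 31.9) in Vehicle-inj and from 19.8 to 38.1 CPM (median 32.4) in Tesa-inj. The groups overlapped (edgeR, log2 fold change -0.057, standard error 0.15, unadjusted p = 0.701), and in libraries 1 to 10 alone the log2 fold change was 0.047.

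Zfp236, a large C2H2 protein, ran from 10.8 to 15.8 CPM (median 12.4) in Vehicle-inj and from 10.3 to 16.5 CPM (median 14.7) in Tesa-inj, and the groups overlapped (edgeR, log2 fold change 0.14, standard error 0.15, unadjusted p = 0.347). Zfp428 ran from 1.36 to 3.57 CPM (median 2.90) in Vehicle-inj and from 0 to 4.78 CPM (median 1.24) in Tesa-inj, where KG8-02 and KG8-12 were empty (edgeR, log2 fold change -0.31, standard error 0.46, unadjusted p = 0.517). Zfp217 ran from 1.82 to 26.3 CPM (median 19.9) in Vehicle-inj and from 0 to 26.8 CPM (median 18.6) in Tesa-inj. As at 24 h, 1 library was empty, here KG8-11, which had the most Zfp counts of Tesa-inj, and KG8-14, which had the most of Vehicle-inj, was the lowest there (edgeR, log2 fold change -0.13, standard error 0.75, unadjusted p = 0.866). Zfp516 ran from 1.76 to 3.71 CPM (median 3.12) in Vehicle-inj and from 0.850 to 4.67 CPM (median 3.56) in Tesa-inj (edgeR, log2 fold change 0.067, standard error 0.35, unadjusted p = 0.852), and Zfp148 ran from 1.62 to 3.41 CPM (median 2.11) and from 0 to 5.82 CPM (median 2.34) (edgeR, log2 fold change -0.036, standard error 0.39, unadjusted p = 0.928). In both genes Tesa-inj enclosed Vehicle-inj, and the sign of the difference changed with the library left out. The 5 remaining tested members, Zfp513, Zfp574, Zfp687, Zfp712 and Zfp768, had log2 fold changes of 0.045, 8.60e-05, 0.018, -0.048 and -0.089.

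Of the 32 silencing partners, 6 were quantified and tested at 46 days, and Trim28 was not among the quantified features. In edgeR 0 of the 6 had an unadjusted p under 0.05 (5.3% of all features), and 3 were below 0 (54.0% of all features). Chd4, the remodelling enzyme of NuRD, had 287 ± 31.2 CPM in Vehicle-inj and 259 ± 76.3 CPM in Tesa-inj (SD, n = 7), with a log2 fold change of -0.14. Chd3 had 3.49 ± 1.31 and 4.34 ± 1.97 CPM (SD, n = 7), with a log2 fold change of 0.31, and its groups overlapped.

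**Figure D3:**
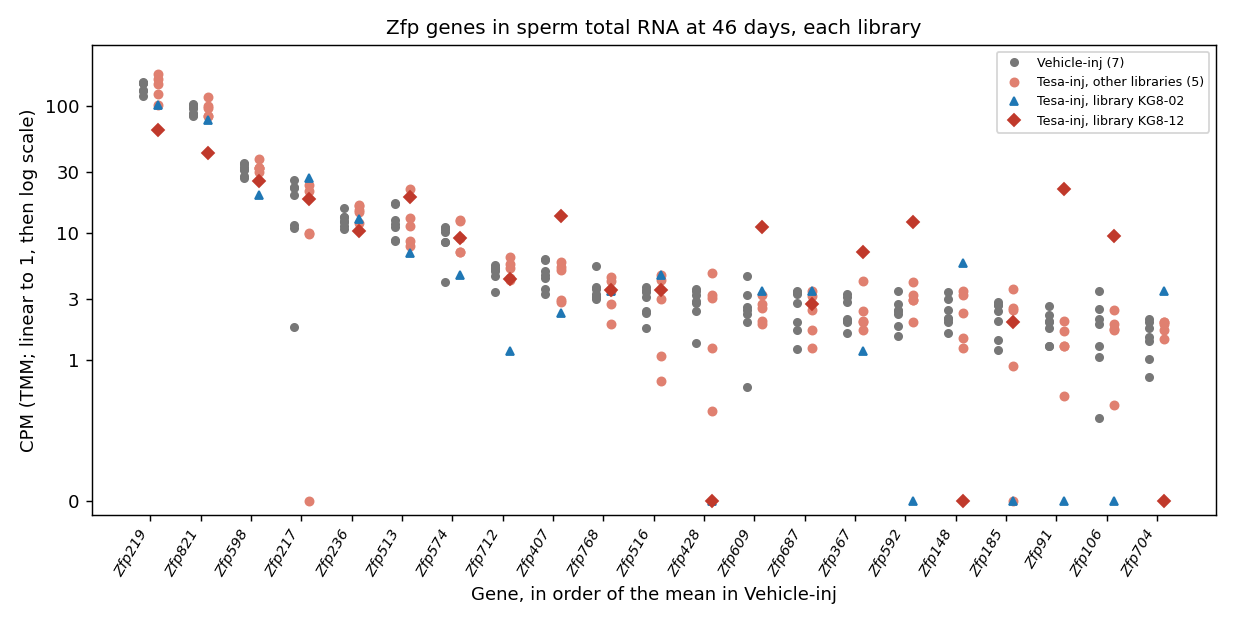
The level of the 21 Zfp genes found at 46 days is drawn for each of the 14 libraries, in CPM after TMM scaling on an axis that is linear up to 1 and logarithmic above. Grey points are the 7 Vehicle-inj libraries, and the Tesa-inj libraries KG8-02 (triangles) and KG8-12 (diamonds) are set apart from the other 5. KG8-12 is highest in 6 genes, among them Zfp91, Zfp407, Zfp592 and Zfp609, and lowest in Zfp219 and Zfp821.

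The 24 h and 46-day differences of each Zfp gene were set against each other in a joint edgeR fit of the 2680 features that passed both filters, with each table scaled on its own. Of the 17 members in it, 0 had an adjusted p under 0.05, as had 0% of all features, and 2 had an unadjusted p under 0.05, against 8.17% of all. The fold changes of all 2680 features had a median difference (24 h minus 46 days) of -0.29 beside -0.46 for the members, which became 1.07 and 0.94 on library totals, so the scaling sets the sign of these medians. The 2 members were Zfp712, named here after its values were seen, with log2 fold changes of -1.04 at 24 h and -0.048 at 46 days (difference -0.996, standard error 0.46, unadjusted p = 0.0398, adjusted p = 0.582), and Zfp367, with -0.78 and 0.25 (difference -1.05, standard error 0.50, unadjusted p = 0.0481, adjusted p = 0.604). DESeq2 gave the same 2 genes (9.70% of all features), library totals without TMM gave 0 (1.04%), and the count ran from 0 to 3 with any 1 of the 22 libraries left out (6.03% to 9.89% of all features), being 0 in 9 of these fits. For Zfp598 the difference was -0.46 beside that median of -0.29 (standard error 0.26, unadjusted p = 0.0866). The other 4 genes with an unadjusted p under 0.05 at 24 h, Zfp644, Zfp319, Zfp451 and Zfp64, were not among the features quantified at 46 days, so that a later value could not be set beside them.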

How the data were processed

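For both sperm tables the authors trimmed reads with Trim Galore 1.16 and quantified them with Salmon 0.11.2 on GRCm38 transcripts, piRNA precursors and transposable elements, per the submitters' processing notes and the study's methods. The deposited unit is estimated counts per gene or repeat family, not normalised, which let reads be divided among similar transcripts. Serum small RNA counts hold no gene names and were not used.

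Estimated counts were rounded. Features exceeding 20 counts in 4 (24 h) or 6 (46 days) libraries or more were fitted by quasi-likelihood (edgeR 4.0.16, R 4.3.3), with TMM over all features of the table and Benjamini-Hochberg adjustment over all features tested. The difference between time points was fitted on 4 group means, each table scaled on its own. The study itself used the exact test of edgeR. Alternatives were that test, DESeq2 1.42.0, limma voom 3.58.1 with quality weights, other scalings, no filter, RefSeq-named features alone, a term for libraries 11 to 14, libraries 1 to 10 alone and each library left out. All libraries entered the main tests. No 2 libraries of a group agreed within sampling noise (smallest chi-square per degree of freedom 18.03). Plots used matplotlib 3.10.9 in Python 3.11.15.

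The members and lists were chosen with earlier results of these data known. Genes named are the 10 Zfp genes with the smallest p at 24 h, the 8 at 46 days, the 10 with the largest Vehicle-inj CPM at 24 h, the tested genes of the role lists, and silencing partners with an unadjusted p under 0.05 at either time, with Trim28 and Setdb1. Some untested genes of the role lists are named as well. Ehmt1 and Ehmt2 are named outside this rule, as partners of Zfp644, which had the smallest p. Per-library values are given for those with the smallest p, for Trim28, for role genes that were also abundant or tested at both times, and, chosen after their values were seen, for Zfp809, Zfp37 and Zfp541. The lists of roles, silencing partners and cell type markers (sperm, spermatocytes, spermatogonia, Sertoli cells, leukocytes, epididymis, red blood cells) were written by hand. Transcript lengths and protein sequences were not used here, so levels were not compared per length and zinc fingers and KRAB domains were not counted.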

Additional observations from a re-analysis of the deposited data

Results flagged for a closer look

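Single libraries stood apart from the rest of their group, by the gap to the nearest library as a share of the group's range, in 10 of 74 sets of values examined, where chance alone gives about 1 in 20. At 24 h, Zfp319 was 2.03 CPM in Tesa-inj library 3 and 0.918 to 1.03 CPM in the other 3. Zfp958 was 0.918 CPM in Tesa-inj library 7 and 0 in the others. Zfp219 was 128 CPM in Vehicle-inj library 2 and 65.0 to 74.1 CPM in the others.

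At 46 days, Tesa-inj library KG8-12 was far above the other 6 in Zfp592 (12.3 CPM), Zfp609 (11.1 CPM) and Zfp407 (13.4 CPM), which reached at most 4.13, 3.49 and 5.93 CPM there. The share of counts on Zfp genes was 0.172% in Tesa-inj library KG8-11 and at most 0.0433% in the other Tesa-inj libraries, and 0.299% in Vehicle-inj library KG8-14 and at most 0.124% in the other Vehicle-inj libraries. The same libraries had the largest TMM factors, 4.84 in KG8-11 and 8.15 in KG8-14. The part of depth in these values was not tested.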

How the results depend on the processing

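The count of Zfp genes with an adjusted p under 0.05 was 0 at 24 h, at 46 days and for the difference between the times under every alternative run, although the edgeR exact test called 14 other features at 46 days and DESeq2 10 for the difference. At an unadjusted p under 0.05 the count at 24 h (6) was 12 with limma voom (9 lower, 3 higher; 7.43% of all features against 2.71% in the first fit) and 2 with library totals (1 lower, 1 higher; 1.10%), and 3 to 7 with 1 library left out (1.94% to 4.29%); it was 3 without Vehicle-inj library 4, 6 or 8. Zfp644, picked for its smallest p in these same libraries, was among them in each of these fits. At 46 days (0) it was 1 with limma voom (Zfp236; 5.76% of all features) and 1 with library totals (Zfp217; 7.19%). The median log2 fold change was 0.17 at 24 h and -1.11 at 46 days with library totals, -0.16 and -0.020 with limma voom (all features -0.084 and -0.014), and -0.12 to 0.14 and -0.091 to 0.028 with 1 library left out.

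Of the 10 genes with the smallest p at 24 h, none changed sign there under any alternative that gave a value. They were picked by their p in these same libraries, which favours a stable sign from the start, so this adds no support. Zfp958 fell below the filter in 4 of the 8 fits with a library left out. At 24 h the sign changed for some left-out library in Zfp407 (-0.39 to 0.14), Zfp36 (-0.10 to 0.29), Zfp106 (-0.093 to 0.31), Zfp91 (-0.0088 to 0.22), Zfp219 (-0.38 to 0.014), Zfp516 (-0.0025 to 0.75), Zfp148 (-0.57 to 0.0037) and Trim28 (-0.016 to 0.15). At 46 days it did in Zfp609 (-0.031 to 0.66), Zfp367 (-0.081 to 0.32, from 8 of the 14 fits, as it fell below the filter in the others), Zfp407 (-0.17 to 0.33), Zfp217 (-0.34 to 0.13), Zfp516 (-0.15 to 0.22) and Zfp148 (-0.21 to 0.085). Values that kept their sign also moved with the library left out. Zfp217 ran from -2.14 to -0.97 at 24 h. The ranges at 46 days were -0.69 to -0.18 for Zfp428, -0.29 to -0.093 for Zfp219, 0.067 to 0.17 for Zfp236, -0.23 to -0.040 for Zfp821 and -0.13 to -0.021 for Zfp598.

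Log2 fold changes at 46 days also changed sign with limma voom for Zfp407 (-0.23), Zfp598 (0.065), Zfp516 (-0.20) and Zfp148 (0.00253), with library totals for Zfp592 (-0.65), Zfp609 (-0.91), Zfp236 (-0.89), Zfp367 (-1.12), Zfp407 (-1.07) and Zfp516 (-0.55), and with TMM over RefSeq-named features for Zfp516 (-0.023). In libraries 1 to 10 alone it changed for Zfp821 (0.053), Zfp407 (-0.27) and Zfp598 (0.047). Without KG8-02 and KG8-12, chosen after seeing the data, it changed for Zfp609 (-0.068), Zfp367 (-0.043), Zfp407 (-0.12), Zfp598 (0.018) and Zfp516 (-0.065). Apart from the scaling by totals, which moves the whole table, the cause was not tested. No paired analysis was possible because the groups compared within a time point share no library numbers.

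The tests at 24 h had 4 libraries a group and a median member at 3.23 CPM, and the smallest detectable difference was not computed. At 46 days 179 members were not measured.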
